A study of Mus musculus with 10 samples.

Results

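Collagens are the triple-helical proteins that give connective tissue its structure. They were taken here as every probe set whose gene symbol in the platform annotation is Col, a number, the letter a and a number, which gave 82 of the 45101 probe sets on the array and 42 of the 18194 genes with a probe set of their own. The RNA came from osteoblasts, the bone-forming cells, of mice aged 2 to 3 days. In 3 arrays the osteoblasts constitutively expressed β-catenin (called active β-catenin below), in 3 arrays FoxO1 was deleted in osteoblasts, and 4 arrays were wild type. The labels give the background strain of all 10 as C5BL6 and the gender as indeterminate, restrict both alterations to osteoblasts, and name no promoter or Cre driver. They do not say whether an array holds cultured cells or the cells of 1 or several animals, and p-values therefore reflect the spread among these 10 samples alone, part of which may be technical. Values are log2 MAS5 signals, on which a difference of d is a fold of 2 to the power of d, and signals of different probe sets cannot be ranked against each other.

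Each collagen is a trimer of chains, made from procollagen in the endoplasmic reticulum, where prolines and lysines are hydroxylated, and trimmed and cross-linked outside the cell. Fibrillar types I, III and V build the fibrils of bone, skin and tendon, with type I the main protein of bone matrix. Types II, IX, X and XI belong to cartilage, from which much of the skeleton is formed before bone replaces it. Type IV forms the network of basement membranes, the sheets under epithelia and around vessels and muscle fibres. β-catenin is the transcriptional partner of TCF/LEF factors in Wnt signalling. FoxO1 is a forkhead transcription factor that responds to insulin and oxidative stress.

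By class, the 42 genes fell into 7 fibrillar genes, 8 cartilage genes, 9 basement membrane genes, a group in which the multiplexins Col15a1 and Col18a1 and the anchoring fibril gene Col7a1 were counted, and 18 others. A probe set was tested if at least 3 of its 10 signals exceeded 7.15, the median of the table. That held for 56 of the 82 probe sets and 33 of the 42 genes, namely 7 fibrillar, 7 cartilage, 6 basement membrane and 13 other genes. The genes left out were the basement membrane chains Col4a3, Col4a4 and Col4a6, the growth plate collagen Col10a1, and Col17a1, Col19a1, Col20a1, Col6a4 and Col6a5. A gene was represented by its tested probe set with the highest mean, and 15 of the 42 genes had a single probe set on the array.

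Array medians lay between 7.02 and 7.22. Wild type 1 and 2 correlated at 0.988 and wild type 3 and 4 at 0.987 over the 20127 probe sets kept, above every other pair of arrays, and the p-values count these as 4 separate samples. Xist, made from the inactive X chromosome, was at 14.05 or more in wild type 3 and 4 and FoxO1 deleted 2 and 3, while the remaining 6 arrays, which include the 3 with active β-catenin, had 8.96 at most. Eif2s3y, a gene of the Y chromosome, was at 10.78 to 11.29 in these 6 arrays and at 2.84 to 4.34 in those with high Xist. By these 2 genes the 6 arrays have the signal of males and the others that of females. Sex was thus not balanced between the genotypes, and all 3 arrays with active β-catenin had the male signal. Actb signal at the 3′ end exceeded that at the 5′ end, which grows as RNA degrades, by 0.85 to 0.88 with active β-catenin, 0.80 to 0.99 with FoxO1 deleted and 0.60 to 0.77 in wild type, and its part in the differences from wild type was not tested. Ctnnb1, which encodes β-catenin, averaged 14.45 ± 0.04 with active β-catenin and 14.48 ± 0.09 in wild type. Foxo1 averaged 9.87 ± 0.24 with FoxO1 deleted and 10.04 ± 0.07 in wild type. The altered part of each gene is not stated in the labels, so these probe sets do not check them. Of osteoblast markers, Sp7, Alpl, Ibsp and Sparc were tested, with a mean level of 13.38 to 13.68 with active β-catenin, 13.40 to 13.54 with FoxO1 deleted and 13.31 to 13.53 in wild type.

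With active β-catenin, 1 of 33 collagen genes rose, the basement membrane chain Col4a1, and 1 fell, Col22a1, a collagen of tissue junctions. The background was 89 of 11357 genes, 0.784%, with 68 higher (0.599%) and 21 lower (0.185%), in limma at a Benjamini-Hochberg adjusted p under 0.05 over all genes. With FoxO1 deleted, 0 collagen genes passed in limma, where 8 of the 33 had an unadjusted p under 0.05 and the lowest adjusted p was 0.409. In that comparison 3 genes of all passed (0.0264%) and 7.83% of all genes had an unadjusted p under 0.05. Differences from wild type were positive for 26 of the 33 collagen genes with active β-catenin, against 51.1% of all genes tested, and for 27 of the 33 with FoxO1 deleted, against 49.8%. The median difference of the collagen genes was 0.14 for active β-catenin and 0.13 for FoxO1 deleted. The median over all genes tested was 0.00 in both comparisons. Both use the same 4 wild-type arrays, so they are not independent of each other. Arrays with active β-catenin lay entirely above wild type for 8 collagen genes, where 7.27% of all genes did so, and entirely below for 1, where 6.76% of all did so. Arrays with FoxO1 deleted lay entirely above wild type for 8 (4.59% of all genes) and entirely below for 0 (4.44% of all genes). An unadjusted p under 0.05 was found for 9 of the 33 with active β-catenin, against 12.1% of all genes.

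**Figure D1:**
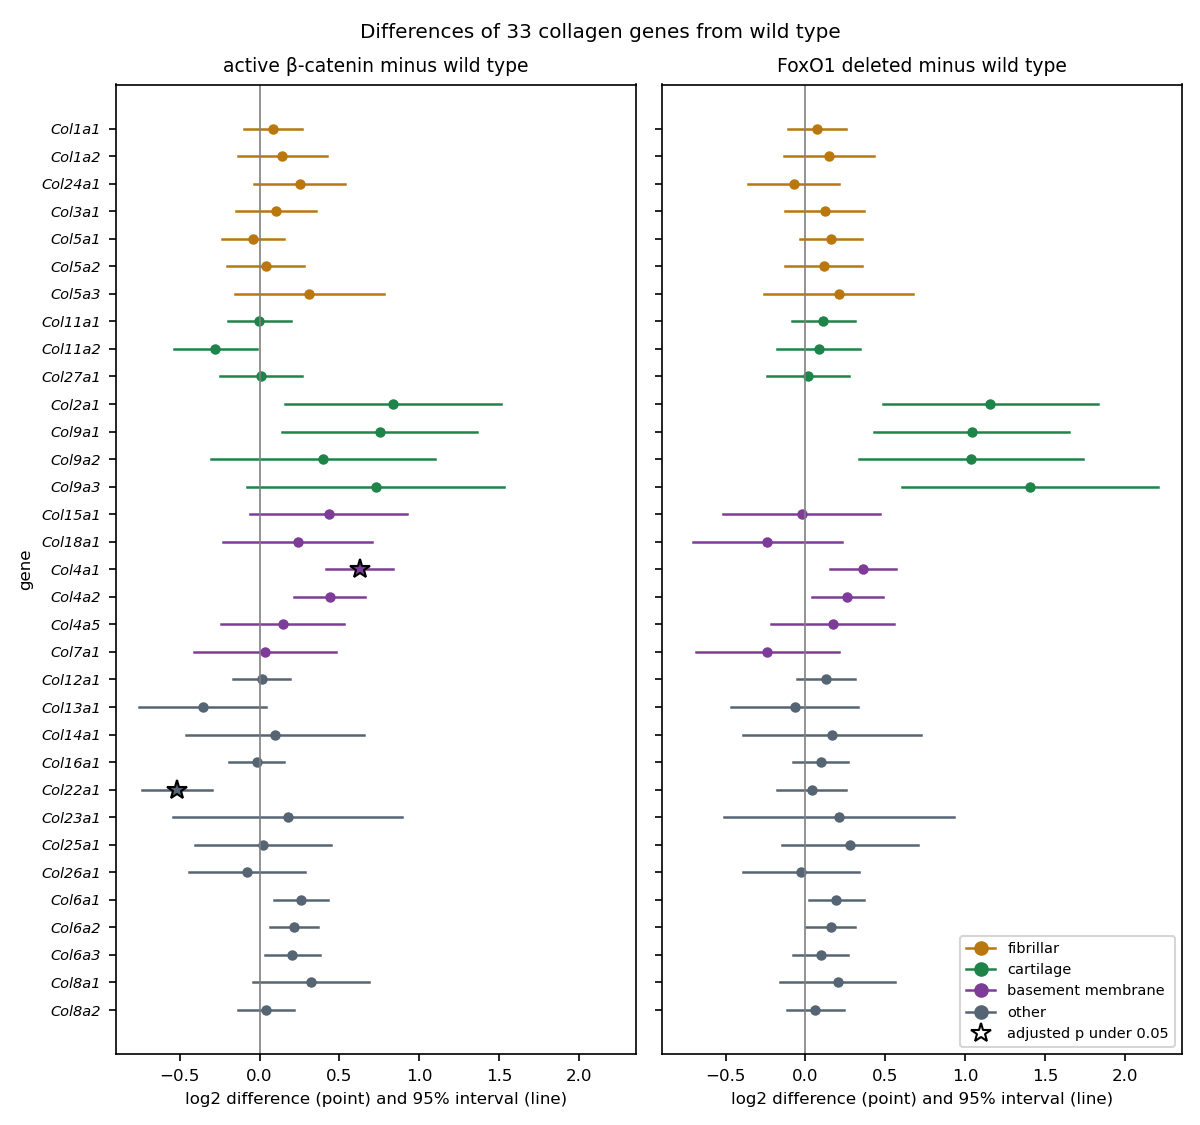
Log2 difference from wild type (horizontal axis) of each of the 33 collagen genes tested, as a point with its 95% interval, for active β-catenin (left) and FoxO1 deleted (right), coloured by class, with a star at an adjusted p under 0.05. The stars are Col4a1 at 0.63 and Col22a1 at −0.52 in the left panel, and the widest shift is that of the type II and IX chains in the right panel.

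Short sequences beside Col4a1, Col4a2, Col9a1, Col9a2 and Col6a1 are shown first, and of these genes only Col4a1 passed in any comparison. The sequences come from RefSeq on build GRCm38.p6, in which 33 of the 42 collagen genes had a promoter window. There were 36 windows in all, each of 250 bases before and 50 after a start site. Col4a1 and Col4a2 lie head to head on chromosome 8, with start sites 21 bases apart on opposite strands, and their windows overlap by 78 bases. The 30 bases around both start sites, at chr8:11312801-11312830 on the plus strand, hold 1 GC box (letters GGGCGG, in capitals) that falls into the windows of both genes.
Col4a1 and Col4a2: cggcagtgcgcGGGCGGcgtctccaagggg

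Of the type II and IX chains described below, Col9a1 and Col9a2 had a window, and 280 bases of each are shown, ending 30 bases after the start site. Col9a1 lies at chr1:24177360-24177639 on the plus strand, and none of the motifs searched was found in these letters. A window at a downstream start site of Col9a1 held 1 CCAAT motif. Col9a2 lies at chr4:121039316-121039595 on the plus strand, with the letters CTTTGAT, known from binding sites of the TCF/LEF partners of β-catenin, and 2 GC boxes, 1 on each strand, in capitals. Col6a1, which encodes a chain of type VI collagen, lies at chr10:76726015-76726294 on the minus strand, with TGTTTAC, a core of FoxO binding sites, in capitals as its reverse complement.
Col9a1: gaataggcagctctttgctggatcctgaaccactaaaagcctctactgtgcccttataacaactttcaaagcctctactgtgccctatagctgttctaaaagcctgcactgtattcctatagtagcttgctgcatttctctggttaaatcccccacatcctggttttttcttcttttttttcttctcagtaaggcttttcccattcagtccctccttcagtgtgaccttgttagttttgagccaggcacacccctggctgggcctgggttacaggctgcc
Col9a2: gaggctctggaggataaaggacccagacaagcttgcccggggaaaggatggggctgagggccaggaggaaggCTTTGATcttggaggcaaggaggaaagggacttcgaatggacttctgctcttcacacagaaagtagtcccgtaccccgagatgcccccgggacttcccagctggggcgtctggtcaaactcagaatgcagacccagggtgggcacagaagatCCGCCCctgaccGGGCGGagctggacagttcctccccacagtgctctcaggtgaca
Col6a1: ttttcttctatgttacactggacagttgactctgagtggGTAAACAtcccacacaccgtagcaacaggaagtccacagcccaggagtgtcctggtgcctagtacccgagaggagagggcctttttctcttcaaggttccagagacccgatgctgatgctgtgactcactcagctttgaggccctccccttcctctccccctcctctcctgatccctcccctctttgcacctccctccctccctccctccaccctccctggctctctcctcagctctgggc

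Motifs were searched on both strands in all 32851 windows of the table. CTTTGAT stood in 1 of 36 collagen windows (2.78%), that of Col9a2, and in 3.73% of all windows. TGTTTAC stood in 1 of 36 (2.78%), that of Col6a1, and in 3.65% of all. ACAATG, a SOX motif, stood in 0 of 36 and in 12.6% of all. GGGCGG stood in 22 of 36 (61.1%) against 35.7% of all, in windows whose median GC content was 59.8% for collagen genes and 52.7% for all. CCAAT stood in 36.1% of collagen windows against 37.4% of all, and TATAAA in 13.9% against 13.6%. A match of letters is a description and no binding site.

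Among basement membrane collagens, Col4a1 and Col4a2, which encode the chains of the common type IV network, had higher values with active β-catenin. Col4a1 stood at 14.08, 13.85 and 13.80 with active β-catenin, at 13.69, 13.51 and 13.73 with FoxO1 deleted, and at 13.27, 13.12, 13.37 and 13.37 in wild type. The 3 genotypes did not overlap, with FoxO1 deleted between the others. Between active β-catenin and FoxO1 deleted, 2 of the 33 collagen genes did not overlap, Col4a1 and Col22a1, where 9.54% of all genes did not. Col4a1 rose with active β-catenin by 0.63 ± 0.10 on the log2 scale (SE), a fold of 1.55 (limma adjusted p = 0.0137). With FoxO1 deleted the difference from wild type was 0.36 ± 0.10 (adjusted p = 0.409), and active β-catenin differed from FoxO1 deleted by 0.27 ± 0.10 (adjusted p = 0.506). The rise did not pass without wild type 1, wild type 2 or active β-catenin 1, nor when wild type 1 was averaged with 2 and wild type 3 with 4, nor with Xist signal as a covariate. Over all 22 other settings its adjusted p was at most 0.18 and its difference 0.52 to 0.70. The other tested probe set of Col4a1 differed by 0.41 ± 0.12 for active β-catenin and by 0.00 for FoxO1 deleted, so the 2 probe sets part with FoxO1 deleted. Within the arrays of low Xist signal the difference of active β-catenin from wild type was 0.72.

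Col4a2 stood at 12.81, 12.46 and 12.53 with active β-catenin, at 12.56, 12.40 and 12.31 with FoxO1 deleted, and at 12.17, 12.02, 12.28 and 12.17 in wild type. All arrays of both altered genotypes lay above all wild-type arrays. The differences did not pass, at 0.44 ± 0.10 with active β-catenin (adjusted p = 0.0824) and 0.26 ± 0.10 with FoxO1 deleted (adjusted p = 0.596). Col15a1, a proteoglycan collagen of vessels and muscle, stood at 9.71, 9.53 and 9.31 with active β-catenin, at 9.47, 9.30 and 8.42 with FoxO1 deleted, and at 9.02, 8.85, 9.15 and 9.32 in wild type. It overlapped wild type in both genotypes, with differences of 0.43 ± 0.22 and −0.02 ± 0.22. Col18a1, the precursor of endostatin, stood at 9.93, 9.98 and 9.89 with active β-catenin, at 9.92, 9.67 and 8.78 with FoxO1 deleted, and at 9.81, 9.53, 9.73 and 9.71 in wild type. It differed by 0.24 ± 0.21 with active β-catenin, whose arrays lay above wild type, and by −0.24 ± 0.21 with FoxO1 deleted. Its other tested probe set differed by 0.43 ± 0.16 with active β-catenin, also above wild type, and by 0.19 ± 0.16 with FoxO1 deleted. None of these passed. FoxO1 deleted 3 was the lowest array for both Col15a1 and Col18a1, and without it their differences for FoxO1 deleted were 0.30 and 0.10. Of the 10 arrays it also had the lowest median, 7.02, and the largest excess of 3′ over 5′ Actb signal, 0.99. It correlated with the other arrays at 0.946 to 0.960. The part of array quality in these low values was not tested. Col4a5 and Col7a1 differed by 0.14 and 0.035 with active β-catenin and by 0.17 and −0.24 with FoxO1 deleted. All 6 basement membrane genes tested were positive with active β-catenin, with a median of 0.33, and 3 of 6 with FoxO1 deleted, with a median of 0.07.

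Vessels are rich in type IV collagen, and markers of endothelium were therefore set beside these genes. All 6 of 6 tested were positive with active β-catenin, with a median of 0.38, and 0 passed in limma. Of the 6, 4 had an unadjusted p under 0.05 (12.1% of all genes) and 4 lay entirely above wild type (7.27% of all genes), while with FoxO1 deleted 0 did either and 3 were positive. Their mean level was 9.77 to 9.82 with active β-catenin, 9.47 to 9.61 with FoxO1 deleted and 9.40 to 9.51 in wild type. Col4a1 and the mean of the endothelial markers were each highest in the 3 arrays with active β-catenin, and the part of the vessels in the rise of Col4a1 was not tested. In bulk RNA, fewer or more cells of a type and less or more RNA per cell cannot be told apart.

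**Figure D2:**
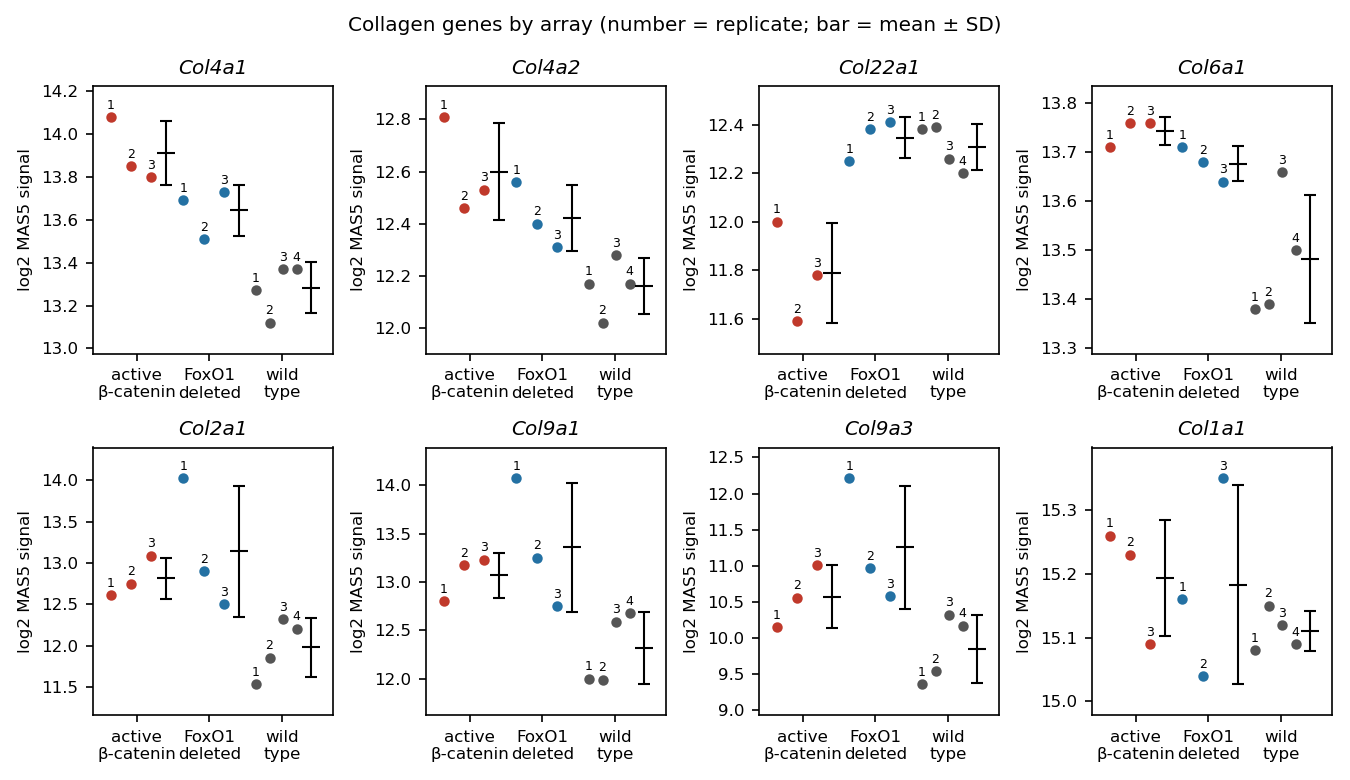
Log2 MAS5 signal (vertical axis, its own scale in each panel) of 8 collagen genes in each array, as numbered points by genotype, with the mean and SD as a bar to the right of each group. Col4a1 and Col4a2 are highest with active β-catenin, Col22a1 is lowest there, and FoxO1 deleted 1 is the highest array for Col2a1, Col9a1 and Col9a3.

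Col22a1 encodes a collagen found at muscle–tendon and cartilage junctions. It stood at 12.00, 11.59 and 11.78 with active β-catenin, at 12.25, 12.38 and 12.41 with FoxO1 deleted, and at 12.38, 12.39, 12.26 and 12.20 in wild type. All 3 arrays with active β-catenin lay below the other 7, and FoxO1 deleted and wild type overlapped. Against wild type Col22a1 fell by 0.52 on the log2 scale with active β-catenin (SE 0.10, a fold of 0.699, limma adjusted p = 0.0384). Against FoxO1 deleted the difference of active β-catenin was −0.56 ± 0.11 (adjusted p = 0.0437), and Col22a1 was the only 1 of 33 collagen genes to pass between these genotypes, where 76 of all genes did (0.669%), 10 of them lower (0.0881%). Both calls were close to the threshold: the first did not pass in 13 of 22 other settings and the second in 18 of 22, with differences of −0.62 to −0.42 and −0.66 to −0.46. The other 2 tested probe sets differed from wild type by −0.65 ± 0.13 and −0.38 ± 0.14, in the same direction, and with each probe set tested on its own these had adjusted p-values of 0.0506 and 0.287. With FoxO1 deleted Col22a1 differed from wild type by 0.04 ± 0.10. Skeletal muscle markers, which could mark attached muscle, had a mean level of 11.07 to 12.69 with active β-catenin, 11.47 to 12.64 with FoxO1 deleted and 11.30 to 12.53 in wild type, so their ranges overlapped.

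Cartilage collagens had the widest differences among the 33 genes, and none passed the test, in limma. Col2a1, the main fibril of cartilage, stood at 12.61, 12.75 and 13.09 with active β-catenin, at 14.02, 12.90 and 12.50 with FoxO1 deleted, and at 11.54, 11.86, 12.32 and 12.21 in wild type. Col9a1, a chain of the type IX collagen that coats type II fibrils, stood at 12.80, 13.17 and 13.23 with active β-catenin, at 14.07, 13.25 and 12.75 with FoxO1 deleted, and at 12.00, 11.99, 12.59 and 12.68 in wild type. Both genes lay above wild type in every array of both altered genotypes, while the other tested probe set of Col9a1 overlapped wild type in both. Col9a2, the second chain, stood at 7.85, 8.51 and 8.86 with active β-catenin, at 9.84, 8.85 and 8.45 with FoxO1 deleted, and at 7.82, 8.10, 7.77 and 8.35 in wild type. Col9a3, the remaining chain of the trimer, stood at 10.15, 10.56 and 11.01 with active β-catenin, at 12.21, 10.97 and 10.58 with FoxO1 deleted, and at 9.36, 9.54, 10.32 and 10.17 in wild type. For these 2 chains only the arrays with FoxO1 deleted cleared wild type, which the other tested probe set of Col9a3 did not, and FoxO1 deleted 1 was the highest of 10 arrays for all 4 genes.

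The differences of FoxO1 deleted from wild type were 1.16 ± 0.31 for Col2a1 (a fold of 2.23), 1.04 ± 0.28 for Col9a1, 1.04 ± 0.32 for Col9a2 and 1.41 ± 0.37 for Col9a3 (2.65). Their 95% intervals, which take no account of the number of genes tested, ran from 0.48 to 1.83 for Col2a1 and from 0.60 to 2.21 for Col9a3, and the limma adjusted p was 0.409 for Col2a1, Col9a1 and Col9a3 and 0.492 for Col9a2. With active β-catenin the differences were 0.83 ± 0.31 for Col2a1 (adjusted p = 0.282), 0.75 ± 0.28 for Col9a1 (0.283), 0.40 ± 0.32 for Col9a2 (0.691) and 0.73 ± 0.37 for Col9a3 (0.470). Active β-catenin minus FoxO1 deleted was −0.32 for Col2a1, −0.29 for Col9a1, −0.64 for Col9a2 and −0.68 for Col9a3, each with an interval that includes 0.

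FoxO1 deleted 1 decided much of the size. Without it the differences for FoxO1 deleted were 0.72 for Col2a1, 0.69 for Col9a1, 0.64 for Col9a2 and 0.93 for Col9a3. With active β-catenin the difference of Col9a2 was 0.675 without array 1 and 0.17 without array 3 of that genotype. FoxO1 deleted 1 was also the only array of its genotype with low Xist signal. For FoxO1 deleted the mean difference of the 4 genes was 2.26 in arrays with low Xist signal, which compares FoxO1 deleted 1 alone with wild type 1 and 2. It was 0.48 in the arrays with high Xist signal, 2 with FoxO1 deleted and 2 wild type. With active β-catenin, all arrays of which had low Xist signal, the mean was 0.94 against wild type 1 and 2. Those 2 arrays were lower than wild type 3 and 4 by a mean of 0.525 over the 4 genes.

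Chondrocyte markers other than collagens were, in their mean, highest in the same array as these chains. All 12 listed were tested, 10 were positive for active β-catenin and 11 for FoxO1 deleted, and 0 passed in limma in either comparison. An unadjusted p under 0.05 was found for 3 of the 12 for active β-catenin (12.1% of all genes). For FoxO1 deleted it was found for 11 of the 12 (7.83% of all genes). Both counts include Sox6, which was lower than wild type, at −0.42 and −0.25 in that order. The 11 leave out Epyc, which was positive at 0.21 for FoxO1 deleted, so they are not the 11 positive markers. Arrays with FoxO1 deleted lay entirely above wild type for 6 of the 12, against 4.59% of all genes. Those with active β-catenin lay entirely above for 3 (7.27% of all genes) and entirely below for 1, Sox6 (6.76% of all genes). Single markers differed in their highest array, since Sox9 was highest in active β-catenin 3 and Sox6 in wild type 1. The 12 include Sox9, the transcription factor of the cartilage lineage, and Matn1 and Comp of cartilage matrix, besides the lower Sox6. Their mean level was 9.55 to 9.85 with active β-catenin, 9.52 to 10.79 with FoxO1 deleted and 9.15 to 9.45 in wild type, so both altered genotypes lay above wild type. Their mean deviation from the 10-array mean was highest in FoxO1 deleted 1, at 1.12, where that of the 4 collagen genes was 1.445. In FoxO1 deleted 3 the 2 values were −0.15 and −0.02, inside the range of the arrays with active β-catenin for the chains. The part of cartilage content in these differences was not tested.

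**Figure D3:**
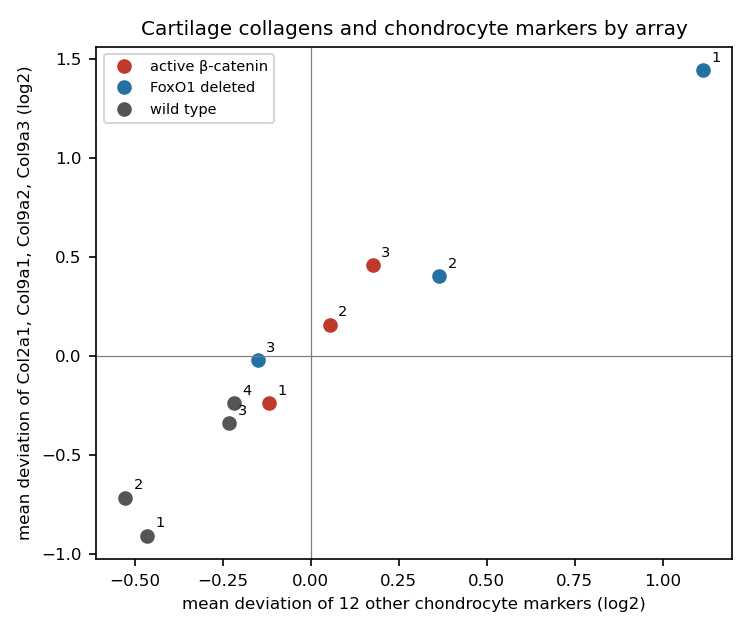
Mean log2 deviation from the 10-array mean of Col2a1, Col9a1, Col9a2 and Col9a3 (vertical axis) against that of 12 other chondrocyte markers (horizontal axis), 1 numbered point per array. The 4 wild-type arrays lie at the low left and FoxO1 deleted 1 stands at the high right.

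The remaining cartilage genes had smaller differences. Col11a1, Col11a2 and Col27a1, which encode minor fibrillar chains of cartilage, differed by 0.00, −0.28 and 0.01 with active β-catenin and by 0.11, 0.08 and 0.02 with FoxO1 deleted. Col11a2 stood at 12.02, 11.62 and 11.56 with active β-catenin, at 12.12, 12.22 and 11.94 with FoxO1 deleted, and at 11.87, 12.16, 12.00 and 12.01 in wild type, with overlapping arrays (adjusted p = 0.380 against wild type). Osteoblast-lineage cells are also known to express type XI chains. Col10a1, the collagen of hypertrophic chondrocytes, was not tested. It stood at 8.20, 4.73 and 2.72 with active β-catenin, at 8.22, 4.41 and 2.98 with FoxO1 deleted, and at 3.12, 4.50, 5.81 and 5.01 in wild type. Only active β-catenin 1 and FoxO1 deleted 1 exceeded the table's median of 7.15.

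The fibrillar collagens of bone had small differences between genotypes. In limma 0 of the 7 passed at an adjusted or an unadjusted p under 0.05 against wild type. The shares of all genes were 0.784% and 12.1% with active β-catenin, and 0.0264% and 7.83% with FoxO1 deleted. Col1a1, which encodes the α1 chain of type I collagen, stood at 15.26, 15.23 and 15.09 with active β-catenin, at 15.16, 15.04 and 15.35 with FoxO1 deleted, and at 15.08, 15.15, 15.12 and 15.09 in wild type. Its differences from wild type were 0.08 ± 0.08 with active β-catenin (95% interval −0.10 to 0.27, adjusted p = 0.765) and 0.07 ± 0.08 with FoxO1 deleted (−0.11 to 0.26, adjusted p = 0.850). With quantile normalization these turned to −0.029 and −0.037. Col1a2, the partner chain, stood at 15.47, 15.60 and 15.38 with active β-catenin, at 15.44, 15.20 and 15.82 with FoxO1 deleted, and at 15.26, 15.38, 15.46 and 15.26 in wild type. The arrays of both chains overlapped between all genotypes. The highest signal in the table was 15.86. The 3 tested probe sets of Col1a2 differed by 0.14, −0.24 and 0.31 with active β-catenin, and by 0.15, 0.19 and 0.15 with FoxO1 deleted.

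Among the other fibrillar genes, Col3a1, the type III chain of soft tissue, differed by 0.10 for active β-catenin and 0.12 for FoxO1 deleted. The type V chains, which set fibril diameter, differed with active β-catenin by −0.04 for Col5a1, 0.04 for Col5a2 and 0.31 for Col5a3, and with FoxO1 deleted by 0.16, 0.11 and 0.21 in that order. Col5a1 stood at 14.02, 14.21 and 14.15 with active β-catenin, at 14.30, 14.17 and 14.52 with FoxO1 deleted, and at 14.14, 14.18, 14.23 and 14.13 in wild type. Col5a3 stood at 9.71, 10.07 and 9.66 with active β-catenin, at 9.73, 9.72 and 9.68 with FoxO1 deleted, and at 9.34, 8.93, 9.74 and 10 in wild type. In the probe set that stands for the gene, both overlapped between all genotypes. With active β-catenin the other tested probe sets of Col5a1 lay entirely below FoxO1 deleted, with differences of −0.31 and −0.25. Between these genotypes 9.54% of all genes did not overlap. The spread of Col5a3 was widest in wild type. Its difference with active β-catenin was 0.12 without wild type 2, 0.48 without wild type 4 and 0.18 without active β-catenin 2, and leaving out the same 2 wild-type arrays moved that with FoxO1 deleted to 0.017 and 0.37. Col24a1, a fibrillar collagen of developing bone, stood at 11.40, 11.02 and 11.18 with active β-catenin, at 10.65, 11.12 and 10.85 with FoxO1 deleted, and at 11.01, 11.12, 10.78 and 10.88 in wild type. It differed from wild type by 0.25 ± 0.13 for active β-catenin and by −0.07 ± 0.13 for FoxO1 deleted, with overlapping arrays. The median over the 7 fibrillar genes was 0.10 for active β-catenin and 0.12 for FoxO1 deleted. In the probe set that stands for the gene, the arrays of neither genotype cleared wild type for any of the 7. Of all genes, 7.27% lay entirely above and 6.76% entirely below wild type with active β-catenin. With FoxO1 deleted 4.59% lay entirely above and 4.44% entirely below. Among the other probe sets of the 7 genes, 1 of Col5a1 and 1 of Col5a2 lay entirely below wild type with active β-catenin. Their differences were −0.14 and −0.17. With FoxO1 deleted 1 of Col5a1 lay entirely above wild type, with a difference of 0.15.

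**Figure D4:**
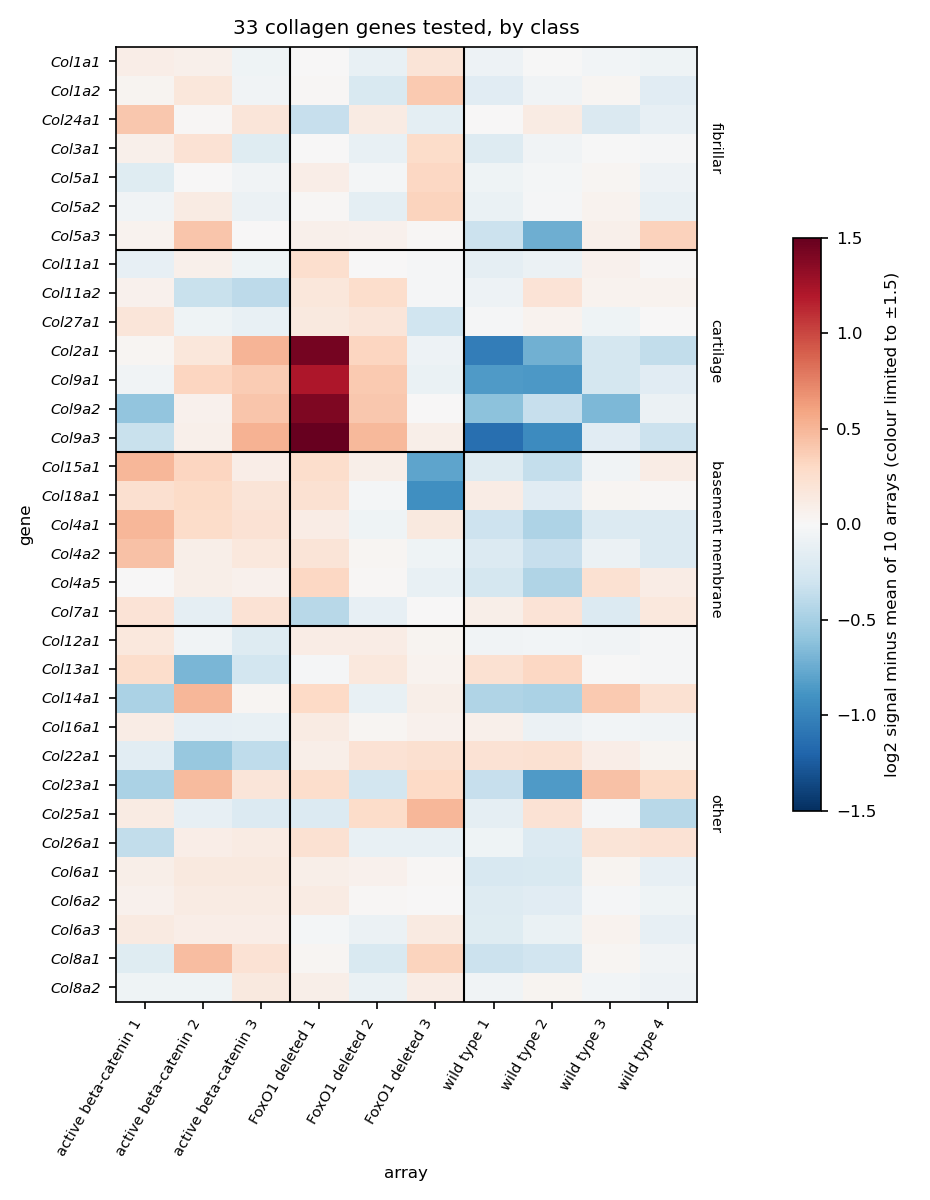
Log2 signal minus the mean of 10 arrays (colour, limited to ±1.5) for the 33 collagen genes tested, in rows by class, and the 10 arrays, in columns by genotype. The type II and IX chains are highest in FoxO1 deleted 1, and Col2a1, Col9a1 and Col9a3 are lowest in wild type 1 and 2.

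Of the 13 other collagens, the 3 type VI chains all had small positive differences. Type VI collagen forms beaded filaments around cells. Col6a1 stood at 13.71, 13.76 and 13.76 with active β-catenin, at 13.71, 13.68 and 13.64 with FoxO1 deleted, and at 13.38, 13.39, 13.66 and 13.50 in wild type. Its arrays with active β-catenin lay above wild type, as did those of Col6a2 and Col6a3 (7.27% of all genes). The differences were 0.26 ± 0.08 for Col6a1 (adjusted p = 0.167), 0.21 ± 0.07 for Col6a2 (0.205) and 0.20 ± 0.08 for Col6a3 (0.310), none of which passed. With FoxO1 deleted they were 0.19, 0.16 and 0.09. Both tested probe sets of Col6a2 also lay entirely above wild type with FoxO1 deleted (4.59% of all genes), at 0.16 and 0.23. Col6a1 and Col6a3 overlapped wild type there. Wild type 1 and 2 had lower Col6a1 than wild type 3 and 4, and against wild type 1 and 2 alone active β-catenin differed by 0.36.

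The remaining genes of that class did not pass in any comparison except Col22a1. Col13a1, a transmembrane collagen, stood at 11.52, 10.57 and 10.98 with active β-catenin, at 11.23, 11.41 and 11.30 with FoxO1 deleted, and at 11.48, 11.56, 11.25 and 11.23 in wild type. Its difference of −0.36 ± 0.18 with active β-catenin rested on arrays 2 and 3, and was −0.605 without array 1 and −0.13 without array 2. Col8a1, a short-chain collagen of vessels and the eye, stood at 13.43, 14.07 and 13.83 with active β-catenin, at 13.64, 13.38 and 13.95 with FoxO1 deleted, and at 13.29, 13.33, 13.64 and 13.56 in wild type. Its arrays overlapped, with differences from wild type of 0.32 ± 0.16 for active β-catenin and 0.20 ± 0.16 for FoxO1 deleted. They were 0.175 without active β-catenin 2 and 0.495 without active β-catenin 1, and 0.055 without FoxO1 deleted 3 and 0.34 without FoxO1 deleted 2. Col12a1, which binds the surface of type I fibrils, stood at 14.74, 14.53 and 14.39 with active β-catenin, at 14.69, 14.70 and 14.62 with FoxO1 deleted, and at 14.53, 14.54, 14.53 and 14.56 in wild type. The arrays with FoxO1 deleted lay above wild type, while the difference was 0.13 ± 0.08 (adjusted p = 0.707). Col25a1, a transmembrane collagen of neurons and muscle, stood at 8.55, 8.31 and 8.22 with active β-catenin, at 8.23, 8.70 and 8.93 with FoxO1 deleted, and at 8.29, 8.65, 8.41 and 8.01 in wild type. Its arrays overlapped, with differences of 0.02 for active β-catenin and 0.28 ± 0.19 for FoxO1 deleted. The median of the 13 genes was 0.04 for active β-catenin and 0.13 for FoxO1 deleted.

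Several probe sets measured the same gene for 17 of the 33 genes, 40 probe sets in all. Their differences had the same sign for 14 of the 17 genes with active β-catenin, the exceptions being Col14a1, Col1a2 and Col5a2. With FoxO1 deleted it was 12 of 17, and Col11a1, Col14a1, Col18a1, Col22a1 and Col5a2 had mixed signs. Both tested probe sets of Col9a1 were positive, at 0.41 and 0.75 with active β-catenin and 0.68 and 1.04 with FoxO1 deleted. Those of Col9a3 were at 0.71 and 0.73 with active β-catenin and at 1.39 and 1.41 with FoxO1 deleted.

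**Figure D5:**
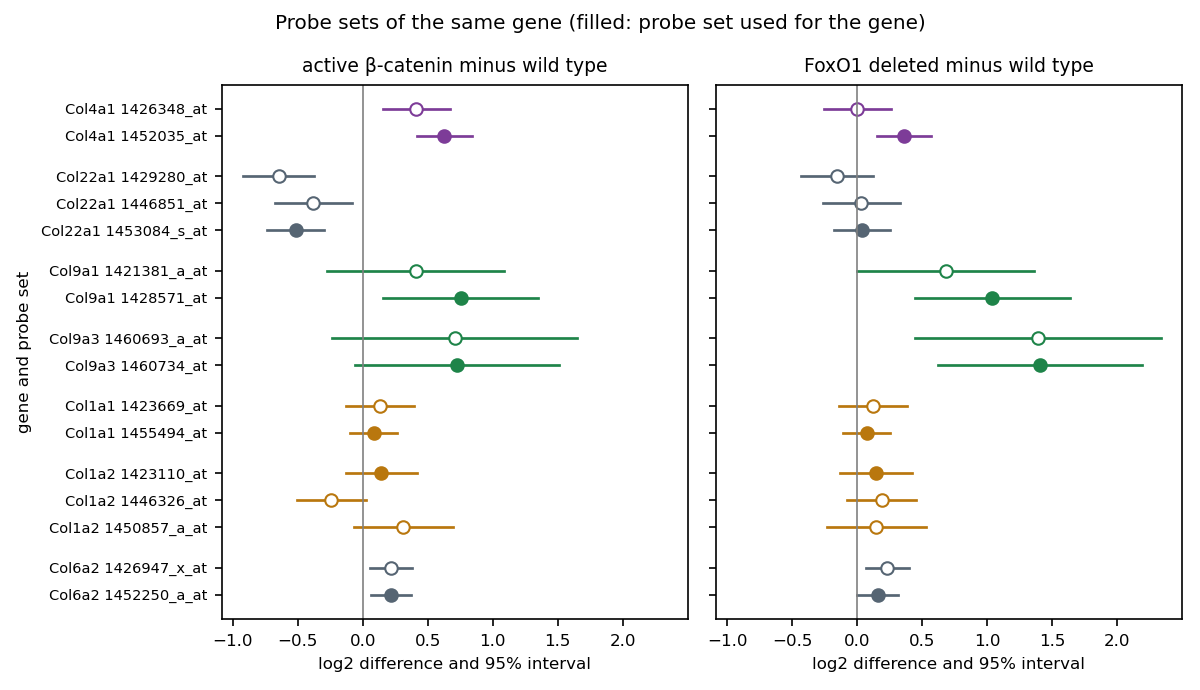
Log2 difference from wild type with its 95% interval (horizontal axis) for each tested probe set of 7 collagen genes, for active β-catenin (left) and FoxO1 deleted (right), filled where the probe set stands for the gene. The 3 probe sets of Col22a1 all lie below 0 with active β-catenin, and the 2 of Col4a1 differ with FoxO1 deleted, at 0.00 and 0.36.

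Genes that make, cross-link and bind collagen were read beside the chains. Of 32 listed genes of collagen modification, folding, trimming and cross-linking, 28 were tested and 0 passed in limma in either comparison with wild type. There 8 for active β-catenin (12.1% of all genes) and 4 for FoxO1 deleted (7.83% of all genes) had an unadjusted p under 0.05. With active β-catenin 12 were positive and 16 negative, with a median of −0.03. With FoxO1 deleted 18 were positive and 10 negative, with a median of 0.06. P4ha1, a prolyl 4-hydroxylase subunit, stood at 11.19, 11.22 and 11.52 with active β-catenin, at 11.76, 11.96 and 11.55 with FoxO1 deleted, and at 11.69, 11.73, 11.88 and 11.79 in wild type, a difference of −0.46 ± 0.11 for active β-catenin that missed the threshold (adjusted p = 0.0917). Loxl3, a cross-linking lysyl oxidase, differed by 0.47 ± 0.11 with active β-catenin (adjusted p = 0.0914) and 0.37 ± 0.11 with FoxO1 deleted (adjusted p = 0.488). Plod3, a lysyl hydroxylase, differed by 0.34 ± 0.11 with FoxO1 deleted (adjusted p = 0.539). Serpinh1, a collagen-specific chaperone, differed by −0.16 for active β-catenin and −0.026 for FoxO1 deleted.

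Of 9 listed collagen receptors 6 were tested and 0 passed in limma in either comparison with wild type. There 2 had an unadjusted p under 0.05 for active β-catenin (12.1% of all genes) and 0 for FoxO1 deleted (7.83% of all genes). Itga1, the integrin α1 subunit that binds type IV collagen, stood at 9.52, 9.33 and 9.12 with active β-catenin, at 9.17, 8.57 and 8.92 with FoxO1 deleted, and at 8.17, 8.55, 8.54 and 8.76 in wild type. The 3 arrays with active β-catenin lay above all wild-type arrays, by 0.82 ± 0.18 on average (adjusted p = 0.0663). Itga10, an integrin subunit of chondrocytes that binds type II collagen, differed by −0.46 ± 0.15 for active β-catenin and 0.29 ± 0.15 for FoxO1 deleted. Ddr2, a receptor kinase for fibrillar collagen, differed by 0.20 ± 0.10 with FoxO1 deleted (adjusted p = 0.651).

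Of 9 collagen-binding proteoglycans, all tested, 1 rose with active β-catenin (0.599% of all genes) and 8 were positive (51.1% of all genes). The gene that rose was Prelp, a proteoglycan that anchors basement membranes to fibrillar collagen. Prelp stood at 10.37, 10.28 and 10.28 with active β-catenin, at 9.69, 9.59 and 9.68 with FoxO1 deleted, and at 9.36, 9.29, 9.57 and 9.48 in wild type. No genotypes overlapped, and the rise was 0.885 ± 0.090, a fold of 1.85 (adjusted p = 0.00129). With the mean of its probe sets the difference was 0.72 and no longer passed (adjusted p = 0.0634). Against FoxO1 deleted it was 0.66 ± 0.10 (adjusted p = 0.0121), and FoxO1 deleted differed from wild type by 0.23 ± 0.09 (adjusted p = 0.614). Fmod, which regulates fibril assembly, differed by 0.35 ± 0.10 with active β-catenin (adjusted p = 0.164) and by 0.47 ± 0.10 with FoxO1 deleted (adjusted p = 0.351). The medians of the 9 genes were 0.16 for active β-catenin and 0.12 for FoxO1 deleted.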

How the data were processed

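Total RNA of 10 samples was hybridised to Affymetrix arrays after biotin labelling from 500 ng, per the labels. The deposited values are log2 signals, with MAS5 named without version per the submitters' processing notes. On the linear scale their mean, trimmed by 2% at each end, was near 500 on every array, and no genome build is stated. Gene names came from the platform annotation, in which 34958 probe sets had 1 gene, 932 several and 9211 none, and 99.4% of the first were found in RefSeq. The filter kept 20127 probe sets and 11357 genes.

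All 10 arrays entered 1 fit with limma 3.58.1 in R 4.3.3, with a mean per genotype, eBayes with a mean-variance trend and 7 residual degrees of freedom. Tests were two-sided, with Benjamini-Hochberg adjustment over all genes tested. Errors of differences are SE, errors of means are SD (n = 3 with active β-catenin, n = 3 with FoxO1 deleted, n = 4 in wild type), and the fit was tested on simulated data. The number of arrays limits the precision. Members, gene lists and tests were chosen with earlier results of these data known. Genes given array by array were those that passed, the best known chains of each class, the 4 largest differences per class and, of the other lists, those that passed or the 2 with the smallest p. Other values, such as those of Col4a5, Col11a2, Serpinh1, were chosen after they were seen. Marker lists also covered osteocytes, tendon and fibroblasts, osteoclasts and macrophages, erythroid cells, keratinocytes and Schwann cells. Alternatives were other filters, scalings, probe set summaries, variance priors, designs and each array left out.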

Additional observations from a re-analysis of the deposited data

How the results depend on the processing

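The count of collagen genes that passed between active β-catenin and wild type was 2. It was 1, Col4a1, with no filter on low values, quantile normalization, the mean of the probe sets or no mean-variance trend, and 0 with the replicate number as a block, similar wild-type pairs averaged or Xist signal as a covariate. Leaving out 1 array gave 0 to 2, with 0 without wild type 1 or wild type 2. Between active β-catenin and FoxO1 deleted the count was 1. It was 0 with no filter, quantile normalization, the mean of the probe sets, each probe set on its own, only the 2 groups fitted, the replicate number as a block, wild-type pairs averaged, the Xist covariate or no trend, and 0 to 1 with 1 array left out. Between FoxO1 deleted and wild type it was 0 in all 22 other settings in limma. The cause of these losses was not tested. In their deviations from the genotype means, arrays of the same replicate number correlated at −0.287 to 0.290 and others at −0.311 to 0.320. Of 10 arrays, 1 correlated best with its own number. These values showed no pairing by number, but with so few arrays they cannot exclude one.

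Of 1122 values of 51 single-gene results under other settings, 1064 kept direction and side of the threshold, 38 no longer passed, 3 newly passed and 17 changed sign. The call of Prelp was lost with the mean of its probe sets (adjusted p = 0.0634). Signs turned with quantile normalization for Col12a1 (−0.033) and Col1a1 (−0.029) with active β-catenin and Col1a1 with FoxO1 deleted (−0.037). They turned with median centring for Col15a1 with FoxO1 deleted (0.019), with the replicate block for Col15a1 with FoxO1 deleted (0.057) and Col25a1 with active β-catenin (−0.09), and with the mean of the probe sets for Col22a1 with FoxO1 deleted (−0.0275). With 1 array left out, differences with active β-catenin ran from −0.08 to 0.095 for Col12a1, −0.09 to 0.12 for Col25a1 and −0.085 to 0.01 for Col5a1. With FoxO1 deleted they ran from −0.225 to 0.30 for Col15a1, −0.47 to 0.10 for Col18a1, −0.01 to 0.145 for Col1a1, −0.02 to 0.29 for Col1a2 and −0.20 to 0.0375 for Col24a1. The 9 collagen genes with too few signals above 7.15 were not assessed, except with no filter.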

Other observations

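Markers of other cells were measured in the same arrays. Of 8 tendon and fibroblast markers, 2 rose with active β-catenin (0.599% of all genes), Thy1 and S100a4, and 6 did not pass. Their mean level was 10.74 to 11.18 with active β-catenin, 10.625 to 10.94 with FoxO1 deleted and 10.36 to 10.94 in wild type. The 4 erythroid markers tested were negative in both comparisons, with medians of −2.41 for active β-catenin and −1.25 for FoxO1 deleted, and 0 passed in limma. There 3 for active β-catenin (12.1% of all genes) and 2 for FoxO1 deleted (7.83% of all genes) had an unadjusted p under 0.05. With active β-catenin Klf1 stood at 2.36, 4.65 and 6.02 and Rhag at 3.86, 5.42 and 4.66, all below the filter value of 7.15. Both genes were tested through wild-type arrays and FoxO1 deleted 2, so the sizes of their differences rest on low signals. Slc4a1 stood above 7.15 with active β-catenin, at 7.9, 9.06 and 7.63, and differed from wild type by −2.07. The 4 osteocyte markers had a median of 0.33 for active β-catenin and 0.35 for FoxO1 deleted. With active β-catenin they went both ways, by −2.35 ± 0.65 for Mepe (adjusted p = 0.152), 0.955 ± 0.202 for Sost (adjusted p = 0.0637), 0.54 for Phex and 0.11 for Dmp1. Mepe stood at 7.96, 4.15 and 6.37 with active β-catenin, and at 8.16, 8.71, 8.54 and 8.62 in wild type. Active β-catenin 2 and 3 were below the filter value of 7.15, so the size of its difference rests on low signals. In limma 3 of the 4 had an unadjusted p under 0.05 with active β-catenin, against 12.1% of all genes. Osteoclast and macrophage markers had medians of −0.06 and −0.13, and no marker of either list passed in limma. Krt10, the 1 keratinocyte marker tested, differed by −0.01 and −0.195, and no Schwann cell marker was tested.

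Some collagen genes are neighbours in RefSeq, and only the pairs with both genes tested are given here. These were Col3a1 and Col5a2 on chromosome 1, Col6a2 and Col6a1 on chromosome 10 and Col4a1 and Col4a2 on chromosome 8. With active β-catenin the differences were 0.10 and 0.04 for the first pair, 0.21 and 0.26 for the second and 0.63 and 0.44 for the third. With FoxO1 deleted they were 0.12 and 0.115, 0.16 and 0.19, and 0.36 and 0.26.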
